A study of Mus musculus with 16 samples.

Results

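The genes described here are 10 regulators of transcription and of RNA processing with known roles in hair cells or sensory neurons: Barhl1, Barhl2, Rbm24, Srrm4, Rest, Insm1, Ikzf2, Rfx1, Rfx3 and Pou4f1. They were chosen by name, and each was read from the row of the value table that carries its symbol alone, so that they make up 10 of the 22180 genes tested. The samples, 16 in 6 groups, were each hybridised to 1 array of the type Affymetrix Mouse Gene 2.1 ST. All cells came from the mouse embryonic stem cell line iGPA-Myo7a:mVenus, in which doxycycline (Dox) turns on Gfi1, Pou4f3 and Atoh1 and the Myo7a promoter drives the fluorescent reporter mVenus; only this line was used. The cells were cultured as floating embryoid bodies (EBs), which are mixed aggregates of differentiating cells. Dox, or Dox with retinoic acid (RA), was added from day 4, and the reporter-positive cells, called induced hair cells (iHCs), were purified by flow cytometry at day 8 (4 days of treatment) or day 12 (8 days of treatment). Each of the 4 iHC groups (Dox or Dox+RA, at day 8 or day 12) held 3 arrays. The control EBs of day 8 and of day 12 held 2 arrays each, came from the same line and were neither treated nor sorted, so treatment and sorting cannot be told apart in any comparison of iHCs with EBs. The replicates were labelled biological and came from independent RNA preparations.

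Hair cells are the mechanosensory cells of the inner ear, and Atoh1, Pou4f3 and Gfi1 act early in their differentiation. Barhl1 encodes a homeobox factor needed for the long-term survival of cochlear hair cells, and Pou4f1 encodes a POU-domain factor of sensory neurons related to Pou4f3. Rbm24 encodes an RNA-binding protein that controls splicing in muscle and hair cells, and Srrm4 encodes a splicing factor that promotes the inclusion of short exons in neurons and hair cells. REST is a repressor that silences neuronal genes in other cell types. SRRM4 is known to act on the Rest transcript, where it promotes an exon that truncates the repressor. An array summary over a whole transcript cannot read that exon, so the values below are levels of Rest RNA and not of active REST protein. Insm1 and Ikzf2 (Helios) encode zinc-finger factors tied to outer hair cell fate and maturation, and Rfx1 and Rfx3 encode factors of the RFX family, which regulates genes of cilia and of mature hair cells.

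The arrays had similar distributions, with medians of 4.675 to 4.821 on the log2 scale, and correlated within groups at 0.982 to 0.995 over all genes. Across the 12 hair cell markers listed, which include the factors turned on by Dox, the mean log2 level per array was 5.22 to 5.33 in EBs and 8.37 to 9.24 in iHCs. Although the labels give the cell type of every sample as embryonic stem cell, Pou5f1, a defining gene of that state, lay at 5.31 to 5.61 in EBs and at 5.08 to 5.32 in iHCs, and Nanog at 7.41 to 7.86 and 4.03 to 5.72. Of the 8 pluripotency markers, 4, 5, 4 and 4 were called lower in iHCs (Dox at days 8 and 12, then Dox+RA) and 1 higher in each comparison. The higher one was Sox2, also a gene of supporting cells and neural progenitors, which read 7.71 to 8.51 in EBs and 8.52 to 9.91 in iHCs. The 8 mesenchyme markers averaged 8.73 to 9.53 per EB array and 4.48 to 5.15 per iHC array, and all 8 were lower in iHCs in each of the 4 comparisons. Among all genes, 15.7% to 22.4% were called higher and 18.9% to 22.4% lower in these comparisons. Since these are bulk samples, fewer cells that express a gene and less RNA of it per cell cannot be told apart.

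Promoter windows of 300 bases, from 250 bases before to 50 bases after an annotated start, were found for 7 of the 10 genes in the RefSeq table of mouse build GRCm38.p6, with 2 starts for Barhl1. Rest, Insm1 and Ikzf2 had no entry. The windows of Barhl1 and Pou4f1 are shown because both genes rose in all iHC groups and both windows carry an E-box of the kind read by ATOH1 and its relatives; that of Barhl2 because it was not called in any comparison with EBs, unlike its paralogue; and that of Rbm24 as a further gene with a large difference. Capitals mark matches to the motifs searched on both strands, and each sequence reads 5′ to 3′ on the gene's strand.

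Barhl1, start 1, chr2:28916619-28916918, minus strand: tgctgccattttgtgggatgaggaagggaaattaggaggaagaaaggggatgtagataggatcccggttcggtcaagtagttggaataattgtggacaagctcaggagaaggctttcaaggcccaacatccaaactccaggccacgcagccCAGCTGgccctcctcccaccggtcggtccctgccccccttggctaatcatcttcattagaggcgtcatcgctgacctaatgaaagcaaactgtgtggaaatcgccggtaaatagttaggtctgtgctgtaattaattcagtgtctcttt
Barhl1, start 2, chr2:28912446-28912745, minus strand: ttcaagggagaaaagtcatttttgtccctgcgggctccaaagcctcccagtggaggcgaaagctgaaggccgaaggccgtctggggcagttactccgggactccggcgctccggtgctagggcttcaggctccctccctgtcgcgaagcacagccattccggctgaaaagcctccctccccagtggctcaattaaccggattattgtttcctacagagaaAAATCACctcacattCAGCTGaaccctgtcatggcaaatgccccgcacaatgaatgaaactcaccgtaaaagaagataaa
Pou4f1, chr14:104467950-104468249, minus strand: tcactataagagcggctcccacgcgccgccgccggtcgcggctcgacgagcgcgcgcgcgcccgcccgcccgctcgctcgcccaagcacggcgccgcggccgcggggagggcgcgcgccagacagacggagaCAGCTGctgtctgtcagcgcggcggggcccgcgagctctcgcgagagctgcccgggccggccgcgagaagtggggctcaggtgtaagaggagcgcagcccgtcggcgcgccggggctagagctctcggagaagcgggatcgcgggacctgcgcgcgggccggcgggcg
Barhl2, chr5:106458117-106458416, minus strand: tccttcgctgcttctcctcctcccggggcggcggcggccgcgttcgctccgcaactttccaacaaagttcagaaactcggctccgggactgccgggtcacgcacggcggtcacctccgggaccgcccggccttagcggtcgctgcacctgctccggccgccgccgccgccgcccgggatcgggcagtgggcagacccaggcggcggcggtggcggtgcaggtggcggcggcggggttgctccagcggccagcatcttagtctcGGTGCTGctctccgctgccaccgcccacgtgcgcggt
Rbm24, chr13:46418050-46418349, plus strand: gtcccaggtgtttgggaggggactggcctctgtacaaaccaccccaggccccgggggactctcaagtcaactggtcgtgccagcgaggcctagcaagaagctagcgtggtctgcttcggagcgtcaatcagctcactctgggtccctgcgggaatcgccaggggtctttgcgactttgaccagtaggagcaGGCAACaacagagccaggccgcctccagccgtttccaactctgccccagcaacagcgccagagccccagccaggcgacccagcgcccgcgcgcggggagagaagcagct

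The E-box searched was CAGCTG, which is its own reverse complement and was present in 3 of the 8 windows (both of Barhl1 and that of Pou4f1) and in 16.3% of the 32851 windows of the table. In Barhl1 it began 99 bases before start 1 and 15 bases before start 2, and in Pou4f1 118 bases before the start. The core read by GFI1, AAATCAC, was present in 3.2% of all windows and in 1 window of these genes, 30 bases before start 2 of Barhl1, in no overlap with the E-box there. The RFX core GTTGCC was present in 12.5% of all windows and in those of Rbm24, Rfx1 and Rfx3. Of the RE1 element bound by REST, the left arm CAGCACC was present in 7.14% of all windows and in that of Barhl2, and the right arm GGACAGC in 6.56% of all windows and in 0 of these 8. No match to one motif overlapped a match to another. These are matches of letters in a short window and were not tested as binding sites.

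Most of these regulators differed strongly between iHCs and control EBs. Barhl1, Rbm24, Srrm4, Insm1, Rfx3 and Pou4f1 were called higher and Rest was called lower in all 4 iHC groups, Rfx1 was called higher and Ikzf2 lower in 2 comparisons each, and Barhl2 was not called in any. Calls rest on a limma fit of 6 group means over all 22180 genes, at a Benjamini-Hochberg adjusted p under 0.05. Of the 10 genes, 7 were called higher and 1 lower with Dox at day 8, where 34.6% of all genes were called (15.7% higher, 18.9% lower). With Dox at day 12, 6 were higher and 1 lower, against 40.8% of all genes called (19.2% higher, 21.7% lower). With Dox+RA, 7 were higher and 2 lower at day 8 (41.6% of all genes called, 19.6% higher and 22% lower), and 6 higher and 2 lower at day 12 (44.8% called, 22.4% higher and 22.4% lower). The median log2 difference of the 10 genes was 1.25, 1.32, 1.5 and 1.28 in these comparisons, and that of all genes was 0.02, 0.02, 0.05 and 0.07. Called higher in all 4 comparisons were 6 of the 10 genes and 11.3% of all genes, and called lower in all 4 was Rest, with 14.5% of all genes. The arrays of iHCs and EBs did not overlap for 55.4%, 58.3%, 61.1% and 64.6% of all genes. Dox and Dox+RA iHCs of a day were set against the same EBs, so their differences are not independent of each other.

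**Figure D1:**
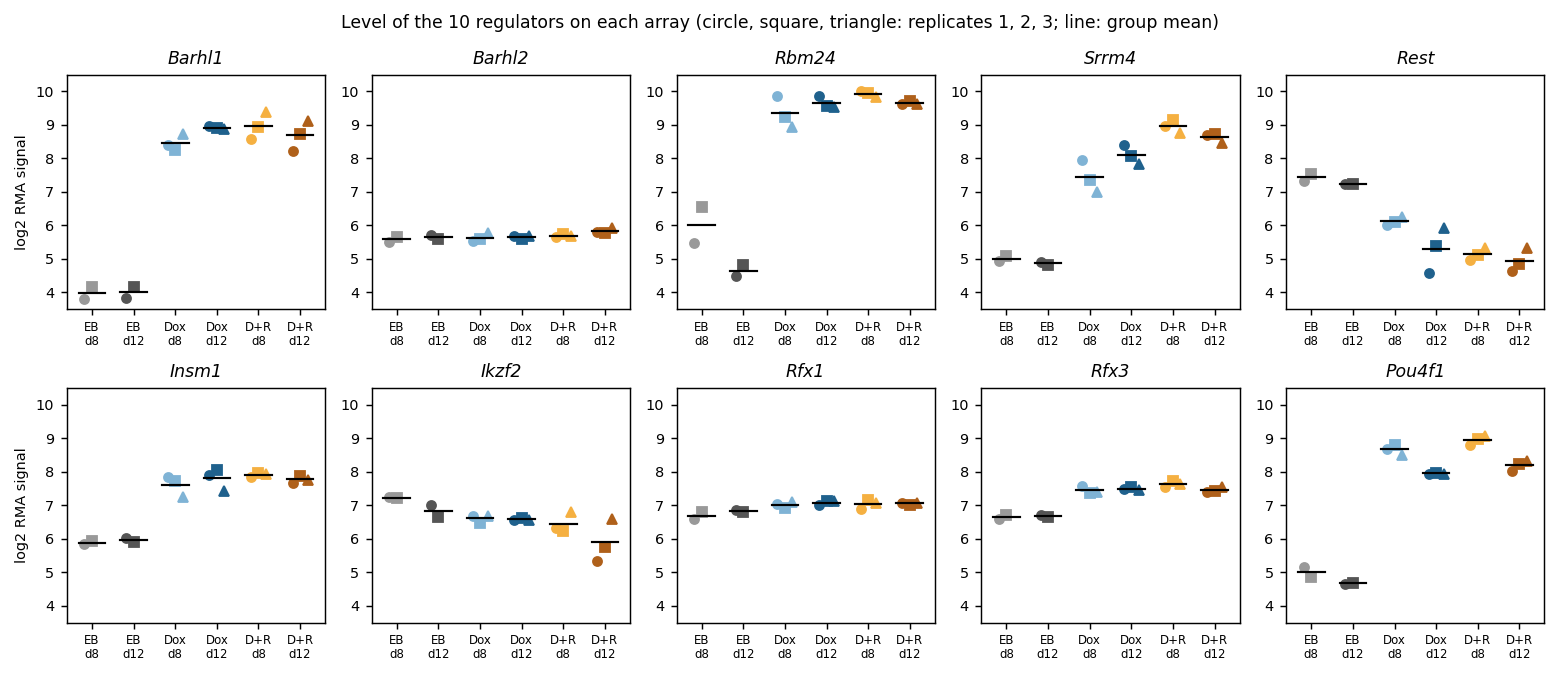
Level of each of the 10 regulators on each of the 16 arrays, with the log2 RMA signal on the y axis and the 6 groups on the x axis (EB: control embryoid bodies; D+R: Dox with RA; d8 and d12: day 8 and day 12). Circles, squares and triangles are replicates 1, 2 and 3, and lines are group means. Barhl1, Rbm24, Srrm4, Insm1, Rfx3 and Pou4f1 lie higher in all iHC arrays than in all EB arrays and Rest lies lower, while Barhl2 stays between 5.52 and 5.91 on all arrays.

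Barhl1 (transcript cluster 17383441) read 3.82 and 4.16 in EBs of day 8 and 3.84 and 4.17 in EBs of day 12. It read 8.41, 8.24 and 8.74 with Dox at day 8 and 8.96, 8.91 and 8.89 at day 12. With Dox+RA it read 8.59, 8.95 and 9.38 at day 8 and 8.21, 8.74 and 9.11 at day 12. Every iHC array lay over 4 log2 units above every EB array, and the 4 iHC groups overlapped each other in order of their means. The log2 difference from EBs was 4.47 ± 0.24 (SE) with Dox at day 8, a 22.2-fold difference (limma adjusted p = 3.8e-09), and 4.92, 4.98 and 4.68 in the other comparisons, each ± 0.24. Barhl2 (17450536), the other gene of the family, also expressed in neural tissue, ranged only from 5.52 to 5.91 over the 16 arrays. Its log2 differences from EBs were 0.04, 0.01, 0.10 and 0.17, each ± 0.10 (SE), and the 95% intervals ran from -0.20 at the lowest to 0.37 at the highest, so that a change of the size seen for Barhl1 lies outside all 4 intervals. Of 6 other homeobox genes listed beside the BARHL pair, Lhx3, a LIM-homeobox gene of hair cells and motor neurons, was called higher in all 4 comparisons, with log2 differences of 4.08 to 4.97. Lhx2, a LIM-homeobox gene of forebrain and eye, read -0.66, -0.36, -0.61 and -0.28, called in the first 3. Barx1, a BAR-like homeobox gene of the gut and jaw, rose by 2.24 ± 0.43 with Dox at day 8 and was not called in the other 3.

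Pou4f1 (17309287) followed the iHC groups closely and had little spread within them. It read 5.17 and 4.87 in EBs of day 8 and 4.65 and 4.69 in EBs of day 12. With Dox it read 8.69, 8.79 and 8.51 at day 8 and 7.94, 7.97 and 7.93 at day 12, and with Dox+RA 8.79, 8.98 and 9.06 at day 8 and 8.02, 8.23 and 8.33 at day 12. All arrays of day 8 iHCs lay above all arrays of day 12 iHCs, and these lay above all EBs. The log2 differences from EBs were 3.64, 3.27, 3.92 and 3.52, each ± 0.12 (SE), with adjusted p from 1.2e-11 to 6.2e-11. Pou4f3, the related gene turned on by Dox, stayed between 11.18 and 11.49 in all iHC arrays, with means of 11.31 and 11.38 with Dox and 11.41 and 11.43 with Dox+RA at days 8 and 12. Of the 12 measured genes listed with the POU4 factors and sensory neurons, 8 were higher and 1 lower with Dox at day 8, and 5 were higher and 3 lower at day 12. With Dox+RA the counts were 7 and 1 at day 8 and 4 and 4 at day 12. Among all genes, 15.7% and 19.2% were called higher and 18.9% and 21.7% lower with Dox at days 8 and 12. With Dox+RA these shares were 19.6% and 22.4% higher and 22% and 22.4% lower. Prrxl1, a homeobox gene of sensory neurons, rose by 3.13 to 3.49 and Eya1, a coactivator of the inner ear, by 2.50 to 2.81 in the 4 comparisons. Isl1, a LIM-homeobox gene of sensory neurons, differed by 2.41 and 0.39 with Dox at days 8 and 12, and by 1.08 and -1.39 with Dox+RA; all but 0.39 were called. Ntrk3, the receptor of neurotrophin 3, rose by 1.80 with Dox at day 8 and fell by 1.06 at day 12.

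The RNA-binding genes Rbm24 and Srrm4 were both raised in all iHC groups, Rbm24 to nearly the same level in each and Srrm4 to different levels. Rbm24 (17286998) read 5.47 and 6.55 in EBs of day 8 and 4.49 and 4.81 in EBs of day 12. With Dox it read 9.86, 9.24 and 8.95 at day 8 and 9.85, 9.55 and 9.52 at day 12, and with Dox+RA 10.01, 9.95 and 9.84 at day 8 and 9.63, 9.72 and 9.61 at day 12. The iHC arrays all lay above the EB arrays, and the Dox+RA arrays of day 8 shared their range with the highest Dox arrays. The log2 differences from EBs were 3.34 and 4.99 with Dox at days 8 and 12 and 3.92 and 5.00 with Dox+RA, each ± 0.27 (SE), called with adjusted p of 1.8e-07 or less. Srrm4 (17451823) read 4.93 and 5.09 in EBs of day 8 and 4.91 and 4.82 in EBs of day 12. With Dox it read 7.95, 7.35 and 6.99 at day 8 and 8.41, 8.08 and 7.84 at day 12, and with Dox+RA 8.96, 9.15 and 8.76 at day 8 and 8.70, 8.73 and 8.46 at day 12. The groups stood in the order Dox+RA day 8, Dox+RA day 12, Dox day 12, Dox day 8 and EBs, and only the neighbours Dox day 12 and Dox day 8 overlapped among the iHCs. The log2 differences from EBs were 2.42 and 3.24 with Dox and 3.94 and 3.76 with Dox+RA, each ± 0.22 (SE). A further row of the table carries both Srrm4 and Srrm4os, a gene on the opposite strand, and was left out.

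Of 28 other splicing regulators of neural and other tissues, all measured, 12 were called higher and 4 lower with Dox at day 8, 14 and 8 at day 12, 14 and 6 with Dox+RA at day 8, and 14 and 10 at day 12. Their median log2 differences were 0.14, 0.33, 0.25 and 0.52. In the order given, 15.7%, 19.2%, 19.6% and 22.4% of all genes were called higher and 18.9%, 21.7%, 22% and 22.4% lower. Higher in all 4 comparisons were 10 genes, against 11.3% of all genes. Lower in all 4 were 4 of the 28, which is near the 14.5% of all genes. Rbfox3 (NeuN), which marks mature neurons, rose by 1.92 to 2.92, Elavl3 by 1.69 to 2.41 and Nova1 by 1.65 to 2.46; the last 2 encode neuronal RNA-binding proteins. Srrm3, the paralogue of Srrm4, read 5.16 and 5.09 in EBs of day 8 and 6.35, 6.20 and 5.90 with Dox at that day, a log2 difference of 1.02 ± 0.19 (SE), and rose by 1.61 to 2.10 in the other comparisons. Mbnl3, a muscleblind gene linked to splicing in undifferentiated cells, fell from 7.55 and 7.35 in EBs of day 8 to 4.58, 4.74 and 4.62 with Dox, a log2 difference of -2.80 ± 0.11, and by 3.03 to 3.14 in the other comparisons. Mbnl1 fell by 1.56 to 1.84, and Esrp1, a regulator of epithelial splicing, by 1.17 to 2.07. Rbm38, the paralogue of Rbm24, was not called at day 8 (-0.08 with Dox and -0.17 with Dox+RA) and rose at day 12 by 0.47 and 0.59, each ± 0.11. Ptbp1, which represses neuronal exons in other cell types, was called in none of the 4 comparisons (0 calls with limma), with log2 differences of -0.17 to 0.01, each ± 0.08, and an unadjusted p under 0.05 in 0 of them. Of the 28 genes, 3 (Rbfox3, Elavl3 and Elavl4) were also in the list of 12 neuron markers, whose mean level per array was 4.64 to 5.07 in EBs and 6.34 to 7.04 in iHCs; the part of neuron-like cells in these values was not tested.

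**Figure D2:**
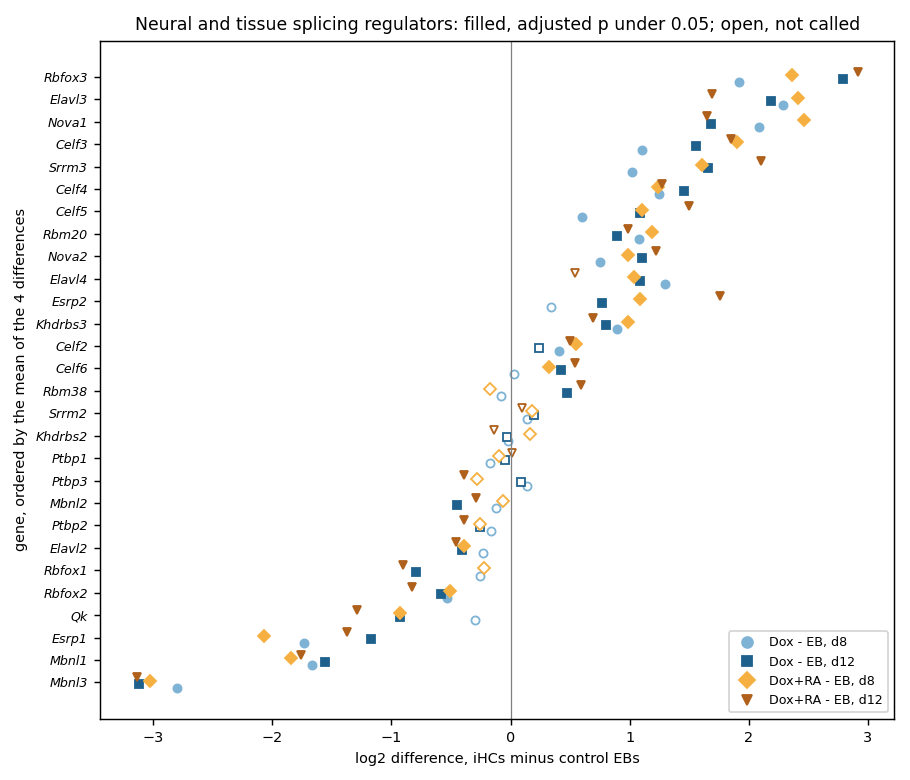
Log2 difference (x axis) between each iHC group and the control EBs of the same day for 28 splicing regulators (y axis, ordered by the mean of the 4 differences). Filled symbols have an adjusted p under 0.05 and open symbols do not; the shapes stand for the 4 comparisons. Rbfox3, Elavl3 and Nova1 lead the 10 genes that are higher throughout, and Mbnl3 lies near -3 in all 4 comparisons.

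Rest (17438485) was the only one of the 10 genes called lower in every iHC group; the mean of Ikzf2 was below that of EBs in all 4 too, with a call in 2. It read 7.31 and 7.54 in EBs of day 8 and 7.23 on both arrays of day 12. With Dox it read 6.0, 6.11 and 6.24 at day 8 and 4.58, 5.40 and 5.92 at day 12, and with Dox+RA 4.98, 5.13 and 5.33 at day 8 and 4.64, 4.86 and 5.32 at day 12. No iHC array reached the EBs, and the 3 groups other than Dox day 8 overlapped. The log2 differences from EBs were -1.31 and -1.93 with Dox and -2.28 and -2.29 with Dox+RA, each ± 0.28 (SE), which is 2.47-fold to 4.88-fold lower, with adjusted p of 0.0017, 4.3e-05, 7.8e-06 and 6.8e-06. The 8 mesenchyme markers given above were lower in the same comparisons, and their part in the fall of Rest was not tested.

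Of 14 measured corepressors and partners of REST, 4 were called higher and 3 lower with Dox at day 8, 6 and 2 at day 12, 4 and 3 with Dox+RA at day 8, and 5 and 5 at day 12, with medians between -0.07 and 0.06. The shares of all genes called in either direction were 34.6%, 40.8%, 41.6% and 44.8%. Rcor2, which bridges REST to histone-modifying enzymes in neural cells, read 7.29 and 7.70 in EBs of day 8 and 9.38, 9.40 and 9.18 with Dox, and rose by 1.83 to 2.16 in the 4 comparisons. Btrc, a ubiquitin ligase subunit that marks REST for degradation, rose by 0.38 to 0.79, and Cdyl by 0.34 to 0.41. Ehmt1, a histone methyltransferase, fell by 0.27 to 0.58.

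Of 26 measured genes known as targets of REST in non-neuronal cells, 18 were called higher and 0 lower with Dox at day 8, 17 and 2 at day 12, 17 and 0 with Dox+RA at day 8, and 15 and 1 at day 12. Their median log2 differences were 0.89, 1.35, 1.19 and 1.52. The shares of all genes were 15.7%, 19.2%, 19.6% and 22.4% called higher and 18.9%, 21.7%, 22% and 22.4% called lower. Higher in all 4 comparisons were 15 of the 26, against 11.3% of all genes. Chgb, a granin of secretory vesicles, read 4.27 and 4.28 in EBs of day 8 and 7.91, 7.49 and 6.76 with Dox, and with Dox+RA 8.45, 8.22 and 8.31. Its log2 differences were 3.11, 4.08, 4.05 and 4.33, each ± 0.27 (SE). Chrnb2, a nicotinic receptor subunit, rose by 2.60 to 4.08, Celsr3, an adhesion receptor of axon guidance, by 2.76 to 3.95, and Snap25, a protein of vesicle release, by 3.17 to 3.86. Not all listed targets moved with these: Tubb3, a neuronal tubulin, was not called at day 8 and fell by 0.61 and 0.90 at day 12, and Scn2a, a sodium channel, fell by 0.61 with Dox at day 12 and was not called in the other 3. Snap25, Stmn2 and Tubb3 are also among the 12 neuron markers, of which 9, 8, 8 and 6 were called higher; the part of neuron-like cells in the target values was not tested.

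**Figure D3:**
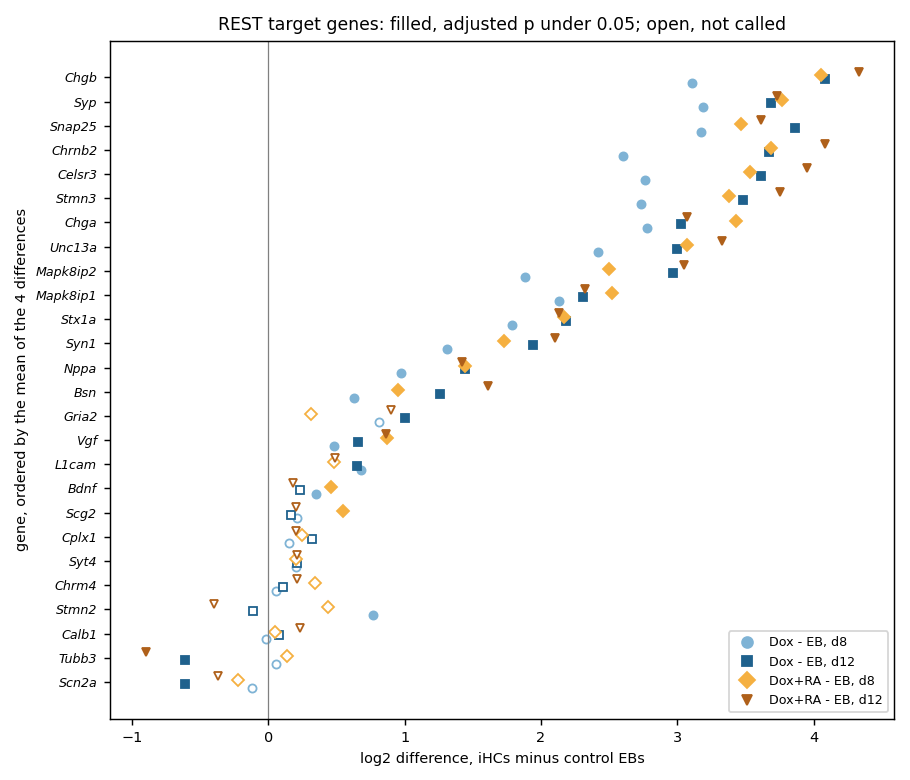
Log2 difference (x axis) between each iHC group and the control EBs of the same day for 26 REST target genes (y axis, ordered by the mean of the 4 differences). Filled symbols have an adjusted p under 0.05 and open symbols do not. The 15 genes called in all 4 comparisons include Chgb at 3.11 to 4.33, while Tubb3 and Scn2a lie at or below 0.14.

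Insm1 (17377253) read 5.83 to 6.01 in the 4 EB arrays and 7.25 to 8.06 in the 12 iHC arrays, with no overlap. Its log2 differences were 1.72, 1.84, 2.03 and 1.81, each ± 0.18 (SE), and the 4 iHC groups overlapped each other in order of their means. Of the 8 genes listed as its relatives with a SNAG repressor domain, Gfi1, which Dox turns on, rose by 4.46 to 4.64. Scrt1, a neuronal repressor, rose by 1.28 to 2.36 in all 4 comparisons, and Snai2 (Slug), a repressor that promotes mesenchymal transition, fell by 3.93 to 4.57. Insm2, the paralogue of Insm1, was called in none of the 4, with 0.09 to 0.26 ± 0.13.

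Ikzf2 (17223985) was called lower with Dox+RA and not with Dox. It read 7.24 and 7.20 in EBs of day 8 and 7.0 and 6.65 in EBs of day 12. With Dox it read 6.69, 6.46 and 6.68 at day 8 and 6.56, 6.63 and 6.55 at day 12, and with Dox+RA 6.31, 6.23 and 6.80 at day 8 and 5.35, 5.74 and 6.58 at day 12. At day 12, replicate 3 of Dox+RA lay close to the lower EB array and the other arrays of that group lay well below. The log2 differences were -0.61 (adjusted p = 0.086) and -0.24 (0.51) with Dox, not called, and -0.78 (0.025) and -0.93 (0.0084) with Dox+RA, each ± 0.26 (SE). The call for Dox+RA at day 8 was lost when either EB array or replicate 1 or 2 of the iHCs was left out (adjusted p up to 0.1), and that at day 12 without EB replicate 1 (-0.76, 0.093). With Dox at day 8 the gene was called when only the groups compared were fitted (adjusted p = 0.0054) or with array weights (0.049). Of the other IKAROS genes, Ikzf5 rose by 0.72 to 0.96, while Ikzf1 and Ikzf4, known from lymphoid cells, fell by 0.46 to 0.61 and by 0.49 to 0.73.

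Of 8 measured genes of outer hair cells, the cell type in which Insm1 and Ikzf2 act, 3, 4, 3 and 4 were called higher and 0 lower in the 4 comparisons. Over all genes, 15.7%, 19.2%, 19.6% and 22.4% were called higher and 18.9%, 21.7%, 22% and 22.4% lower. Chrna10, a subunit of the efferent acetylcholine receptor, rose by 1.87 to 5.04, Bcl11b by 2.51 to 3.14 and Lmo7, an actin-linked protein, by 0.39 to 0.92. Slc26a5 (prestin), the motor protein that defines outer hair cells, differed by -0.01, 0.14 and 0.03 without a call and by 0.35 ± 0.09 with Dox+RA at day 12, where it was called. Ocm (oncomodulin) was not called in any, with 0.09 to 0.28 ± 0.15. Of 7 genes of inner hair cells, 4 were called higher and 2 lower in each comparison. Otof, which drives vesicle release, rose by 2.37 to 4.14, and Slc17a8, the vesicular glutamate transporter, by 1.29 to 2.17. Slc7a14 rose by 1.26 to 3.30, and Tbx2, which sets inner hair cell identity, fell by 0.81 to 1.67.

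Of the RFX genes, Rfx3 (17363704) read 6.60 to 6.72 in the EB arrays and 7.35 to 7.71 in the iHC arrays, with no overlap and log2 differences of 0.78, 0.80, 0.97 and 0.76, each ± 0.10 (SE). Rfx1 (17503068) read 6.58 to 6.87 in EBs and 6.90 to 7.16 in iHCs. Its differences of 0.33 and 0.36 at day 8 were called (adjusted p = 0.017 with Dox and 0.0082 with Dox+RA), and those of 0.24 and 0.21 at day 12 were not (0.072 and 0.096), each ± 0.10. Both calls at day 8 were lost when EB replicate 1 was left out (0.23 and 0.25, adjusted p = 0.19 and 0.12) or when only the groups compared were fitted, and both values at day 12 were called after quantile normalization was repeated (0.036 and 0.046). Of 24 other RFX genes and ciliary partners, 7 were called higher and 5 lower with Dox at day 8, 8 and 6 at day 12, 8 and 4 with Dox+RA at day 8, and 7 and 5 at day 12 with medians of 0.03 to 0.09. Of all genes, 34.6%, 40.8%, 41.6% and 44.8% were called in either direction, in the same order. Rfx6, a factor of endoderm and pancreatic islets, fell by 1.25 to 3.16, and Rfx2 by 0.68 to 0.96. Bbs1 and Bbs2, subunits of the ciliary BBSome, rose by 0.76 to 1.14 and by 0.66 to 1.10, and Foxj1, a factor of motile cilia, by 0.53 to 1.01.

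**Figure D4:**
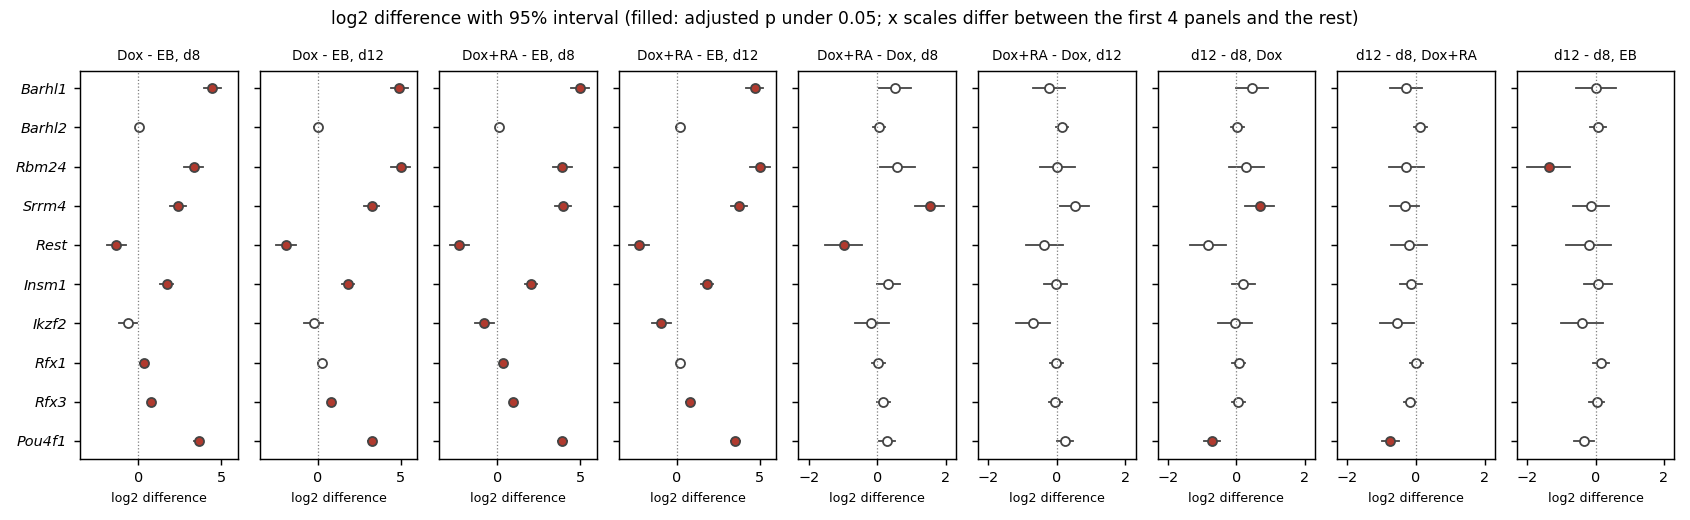
Log2 difference (x axis, with 95% interval) of each of the 10 regulators (y axis) in 9 comparisons; the first 4 panels have a wider x scale than the other 5. Filled points have an adjusted p under 0.05. The first 4 panels hold the large differences between iHCs and EBs, up to 5.00 for Rbm24, and the panel for Dox+RA against Dox at day 8 holds calls for Srrm4 (1.53) and Rest (-0.97) alone.

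The comparison of Dox+RA with Dox asks what RA added. At day 8, Srrm4 was higher with RA by 1.53 ± 0.20 (SE), a 2.88-fold difference (limma adjusted p = 6.8e-04), and Rest was lower by 0.97 on the log2 scale ± 0.25 (adjusted p = 0.036). The arrays of both groups did not overlap for either gene, as for 23.8% of all genes. These were 2 of the 10 genes, against 4.93% of all genes called (2.05% higher, 2.89% lower). The Srrm4 call held in all 15 alternatives, with adjusted p of 0.014 or less. The Rest call was lost when replicate 2 or 3 of Dox or replicate 1, 2 or 3 of Dox+RA was left out, with adjusted p of 0.12, 0.13, 0.12, 0.1 and 0.054 and log2 differences of -0.89 to -1.07. Barhl1 differed by 0.51 ± 0.22 and was not called (adjusted p = 0.22), but was with the replicate number as a block (0.047). Rbm24 differed by 0.59 ± 0.24 (adjusted p = 0.19) and was not called, but was without replicate 1 of Dox (0.84, adjusted p = 0.04); without replicate 3 of Dox the difference was 0.39. The differences of Insm1 (0.32), Pou4f1 (0.28) and Rfx3 (0.18) were not called.

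At day 12, none of the 10 genes was called by limma between Dox+RA and Dox, where 0.924% of all genes were (0.383% higher, 0.541% lower), and 3 of them had an unadjusted p under 0.05. These were Srrm4 (0.52 ± 0.20, adjusted p = 0.29), Pou4f1 (0.25 ± 0.11, 0.39) and Ikzf2 (-0.69 ± 0.23, 0.22). The value for Ikzf2 depended on single arrays. Without replicate 3 of Dox+RA the difference was -1.03 (limma adjusted p = 0.0079). With array weights, where the same gene was the 1 member called, it was -0.86 (0.035). Over the 15 alternatives the Ikzf2 difference ran from -1.03 to -0.42, with adjusted p up to 0.6 and a call in 2. The RA effect itself was not shown to differ between the days. Its change from day 8 to day 12 was -1.01 ± 0.28 for Srrm4 (adjusted p = 0.55) and 0.61 ± 0.35 for Rest (0.91); 0 of the 10 genes were called by limma in this test, 2 had an unadjusted p under 0.05, and 0.00902% of all genes were called.

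Among the REST targets, 5 of 26 were higher with RA at day 8 and 0 lower, with a median of 0.36. The hair cell markers moved alike in this comparison, with 5 of 12 called higher and 0 lower and a median of 0.43, while 0 of the 12 neuron markers were called by limma (2 had an unadjusted p under 0.05) and their median was 0.10; the part of the hair cell marker difference in the target values was not tested. The 5 targets were Chrnb2 (1.09 ± 0.21, adjusted p = 0.0093), Chgb (0.94), Celsr3 (0.76), Chga (0.65) and Mapk8ip2 (0.62). With the replicate number as a block, 10 of the 26 were called, Syp, Stmn3, Stx1a, Unc13a and Mapk8ip1 being added. Of all 22180 genes, the block called 1054 higher and 1382 lower in this comparison, against 454 and 640 without it. At day 12, 0 of the 26 were called by limma, with or without the block, and 0 had an unadjusted p under 0.05. Of the 28 splicing regulators, Ptbp3 was lower with RA at day 8 (-0.43 ± 0.10) and at day 12 (-0.48 ± 0.10); with the block, 5 were higher and 2 lower at day 8, Srrm3 among them (0.59, adjusted p = 0.0043). Of the sensory neuron genes, Isl1, Ntrk3 and Prph, a filament of peripheral neurons, fell with RA at day 8 by 1.33, 1.31 and 1.41.

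Between day 8 and day 12 of culture with Dox, Pou4f1 was called lower and Srrm4 was called higher, the latter near the threshold. Pou4f1 differed by -0.72 ± 0.11 (SE) with Dox (limma adjusted p = 0.0024) and by -0.75 ± 0.11 with Dox+RA (0.0017), with no overlap of arrays in either, as for 23.2% and 22.8% of all genes. These values can be set beside -0.35 ± 0.13 in EBs (adjusted p = 0.23); neither change differed from that of EBs beyond the threshold (adjusted p = 0.36 and 0.32). Srrm4 differed by 0.68 ± 0.20 with Dox (adjusted p = 0.049), with 1 array of day 8 above 1 array of day 12. That call was lost in 7 of 15 alternatives, among them median centring (0.071) and leaving out replicate 2 or 3 of day 8 or replicate 1 or 2 of day 12 (0.16, 0.21, 0.22 and 0.11). Without replicate 3 of day 8 the difference was 0.46. Rest differed by -0.82 ± 0.25 (limma adjusted p = 0.058). It was called with the replicate number as a block (0.0043), with array weights (0.01) and without dim genes (0.046). Without replicate 3 of day 12 the difference was -1.13 (0.0043). Over the 15 alternatives, of which 4 gave a call, the Rest difference ran from -1.13 to -0.46, with adjusted p up to 0.24. With Dox, 2 of the 10 genes were called over time, against 8.05% of all genes (3.39% higher, 4.66% lower). The block called 3 of the 10 genes, and of all 22180 genes 1352 higher and 1787 lower. With Dox+RA, Pou4f1 was the 1 gene called, against 4.38% of all genes (1.78% higher, 2.61% lower); Srrm4 read -0.33 ± 0.20 and Rest -0.21 ± 0.25. Ikzf2 read -0.55 ± 0.23 there (limma adjusted p = 0.22) and -0.90 (0.008) without replicate 3 of day 12. Over the 15 alternatives this Ikzf2 value ran from -0.90 to -0.28, with adjusted p up to 0.61 and a call in 1.

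Over the same 4 days in EBs, Rbm24 was the 1 gene called, at -1.36 ± 0.29 (adjusted p = 0.015), against 3.75% of all genes (2.33% higher, 1.42% lower); its arrays of the 2 days did not overlap, as for 45.5% of all genes. EB replicate 2 of day 8 was the highest EB array at 6.55, and without it the difference was -0.82 (adjusted p = 0.25); the call was also lost without EB replicate 1 of day 12 (0.18). Rbm24 is also a gene of heart and muscle, and the 12 cardiac and muscle markers averaged 7.01 and 7.62 on the EB arrays of day 8 and 6.23 and 6.34 on those of day 12, against 4.81 to 5.41 in iHCs. Their part in the Rbm24 values of EBs was not tested. The change of Rbm24 over time with Dox, 0.29 ± 0.24, differed from that in EBs by 1.66 ± 0.38 (adjusted p = 0.029), the 1 call among the 10 genes against 2.84% of all genes (1.03% higher, 1.81% lower). For Dox+RA against EBs the same test gave 1.08 ± 0.38 for Rbm24 (0.19), which became 1.62 (adjusted p = 0.016) without EB replicate 1 of day 8 and 0.54 (0.63) without EB replicate 2 of day 8; 0 of the 10 genes were called by limma, 2 had an unadjusted p under 0.05, and 2.62% of all genes were called.

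Of the REST targets, 7 were higher and 1 lower at day 12 than at day 8 with Dox, with a median of 0.33. In this comparison 3.39% of all genes were called higher and 4.66% lower. Of the hair cell markers, 2 of 12 were higher and 0 lower there, with a median of 0.35, and of the neuron markers 2 were higher and 3 lower, with a median of -0.08; their part in the target values was not tested. Chgb rose by 0.88 ± 0.25 and Chrnb2 by 0.76 ± 0.21, and Stmn2 fell by 0.79. With the block, 12 were higher and 1 lower, where 1352 of all 22180 genes were called higher and 1787 lower. With Dox+RA, 0 of the 26 were called by limma over time and 4 had an unadjusted p under 0.05. The block called 2 (Bsn and Syn1) there, and of all genes 903 higher and 1107 lower. Of the splicing regulators, Rbfox3 (0.88 ± 0.16), Srrm3 (0.83 ± 0.17) and Celf6 (0.52 ± 0.09) rose and Qk and Ptbp3 fell with Dox.

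Within both Dox groups, Srrm4 fell and Rest rose with each replicate number from 1 to 3. Within both Dox+RA groups, both genes were higher in replicate 2 than in replicate 1, so the opposite spread there rests on replicate 3. From replicate 1 to 2, Srrm4 read 8.96 and 9.15 at day 8 and 8.70 and 8.73 at day 12. Rest read 4.98 and 5.13, and 4.64 and 4.86, on the same arrays. Replicate 3 had the highest Rest level and the lowest Srrm4 level in each of the 4 groups. Its level of the 12 hair cell markers was also the lowest in each group, at 8.37 against 8.80 and 8.46 with Dox at day 8, 8.69 against 9.04 and 8.88 at day 12, 9.01 against 9.24 and 9.20 with Dox+RA at day 8, and 8.84 against 9.20 and 9.09 at day 12. The 8 endoderm markers were highest in replicate 3 of both Dox groups (6.08 against 5.39 and 5.61 at day 8; 6.11 against 5.27 and 5.36 at day 12), and lay at 5.36 to 5.53 in all Dox+RA arrays. The 10 supporting cell markers were highest in replicate 3 of all 4 groups, at 6.63 against 6.51 and 6.54 with Dox at day 8, 6.49 against 6.01 and 6.17 at day 12, 6.45 against 6.30 and 6.32 with Dox+RA at day 8, and 6.15 against 5.86 and 5.92 at day 12. The 12 neuron markers were lowest in replicate 3 with Dox (6.56 against 7.01 and 6.91 at day 8, 6.52 against 6.75 and 6.73 at day 12). With Dox+RA they were highest in replicate 3 (7.04 against 6.75 and 6.81 at day 8, 6.69 against 6.39 and 6.34 at day 12). Replicate 3 also had the lowest array weight of each iHC group (0.435 to 0.729). The part of these marker differences in the levels of Srrm4 and Rest was not tested. Barhl1 had its highest array in replicate 3 at Dox day 8 and in both Dox+RA groups, so not all regulators were low in that replicate.

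**Figure D5:**
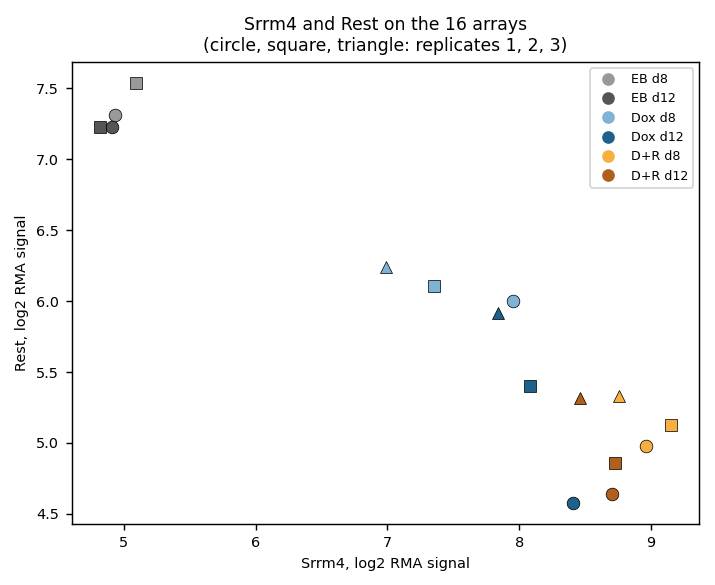
Log2 RMA signal of Srrm4 (x axis) against that of Rest (y axis) on the 16 arrays; colours are the 6 groups, and circles, squares and triangles are replicates 1, 2 and 3. The 4 EB arrays lie at the upper left, with Rest at 7.23 to 7.54, and replicate 3 (triangle) has the highest Rest and the lowest Srrm4 of each iHC group.

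The genes whose levels were most like those of each regulator were found by Pearson's r over the 16 arrays among all 22180 genes, passing over predicted and unnamed genes. These r values are descriptions: EBs and iHCs form separate clusters, so any gene that separates them has a high r, and the value within the 12 iHC arrays is given beside each. Closest to Barhl1 were Nfasc (0.995, and 0.77 within iHCs), Pla2g2f (0.994, 0.79) and Atoh1 (0.994, 0.63), of which Atoh1 is turned on by Dox. For Srrm4 they were Etnk1 (0.992, 0.94), Sh2d4b (0.991, 0.98) and Myo3b (0.990, 0.95), the last a myosin of hair cell stereocilia. Sh2d4b averaged 7.01 ± 0.37 (SD, n = 3) with Dox and 8.49 ± 0.19 (SD, n = 3) with Dox+RA at day 8, so it stood in the same order as Srrm4 there. For Rest the closest were Cep192 (0.988, 0.96), Igf2r (0.986, 0.97) and Trip10 (0.984, 0.94), and the most opposed were Ccdc189 (-0.987, -0.96), Tunar (-0.984, -0.95) and Prrt3 (-0.981, -0.93). Rbm24 was closest to Spire1 (0.995, 0.86), Dmxl2 (0.994, 0.87) and Atp6v1e1 (0.990, 0.79). Insm1 was closest to Stk33 (0.994, 0.92), Soga3 (0.992, 0.88) and Syp (0.992, 0.88), the last a synaptic vesicle protein. Pou4f1 was closest to Stox1 (0.996, 0.93), Tpd52 (0.993, 0.85) and Pcdh15 (0.992, 0.86), the last a tip-link cadherin of hair cells. Rfx3 was closest to Vps13b (0.986, 0.74), Cabp2 (0.985, 0.82) and Chga (0.985, 0.77). The r values of the other 3 genes were lower: Rfx1 reached 0.904 with Syne3 (0.63 within iHCs), Ikzf2 0.885 with Nynrin (0.88) and Barhl2, with its narrow range of levels, 0.867 with Tex38 (0.89).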

How the data were processed

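The values analysed are the log2 signals of the deposited table, 1 column per array; the authors made them with Affymetrix Expression Console and RMA (background correction, quantile normalization and probe summary), per the submitters' processing notes. Tool versions, the genome build and the probe annotation were not given in the sources used here. Of the 33708 rows, 23521 have 1 gene symbol in the platform annotation, 1814 have several and 8373 have none; 23328 of the first were matched to RefSeq by gene ID. For the 1082 genes with several rows, the row with the highest mean was used, which left 22180 genes. The 10 regulators each had exactly 1 row and all stayed when dim genes were left out. The log2 scale of RMA compresses differences of dim genes, and the number of arrays limits the precision.

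All 22180 genes were fitted with limma 3.58.1 (R 4.3.3) on 6 group means, with 12 contrasts, moderated standard errors and Benjamini-Hochberg adjusted p under 0.05 as the threshold. The procedure was tested on simulated data. Errors after ± are standard errors of the fit unless SD is named. The text names the 10 regulators, the 3 genes with the highest r with each (for Rest also the 3 with the lowest; for Rfx1, Ikzf2 and Barhl2 the first only), and from each list up to 4 called genes with the largest differences from EBs. Other listed genes (paralogues, genes that went the other way, genes called with RA or over time, known regulators that were not called) were chosen after their values were seen. The regulators and the gene lists were chosen with earlier results of these data known. Same-numbered arrays of the iHC groups deviated together (r above 0.1 in 18 of 18 pairs, 0.147 to 0.513). Arrays of unlike number were not compared in this way. The numbers were taken from the labels, which do not say what a shared number stands for. Values with the replicate number as a block are given where they change a call of the 10 regulators. For the listed genes only some of the changed calls are given. Pairs with an EB array ranged from 0.026 to 0.179, which overlaps the range of the iHC pairs. The block was fitted over all 16 arrays, so block values that involve EBs also rest on the EB numbers. Alternatives changed the replicate block, moderation, normalization, dim filter, array weights, rows, samples fitted and replicates. Figures were drawn with matplotlib 3.10.9.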

Additional observations from a re-analysis of the deposited data

Results flagged for a closer look

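The change of Rbm24 from day 8 to day 12 differed between Dox-treated iHCs and EBs by 1.66 ± 0.38 on the log2 scale (limma interaction test, adjusted p = 0.029). Rbm24 read 9.35 and 9.64 on average in iHCs and 6.01 and 4.65 in EBs at the 2 days. The call was lost in 8 of 19 alternatives, over which the value ran from 1.12 to 2.20 and the adjusted p from 0.002 to 0.15; without EB replicate 2 of day 8 the value was 1.12 (adjusted p = 0.15). The cardiac and muscle marker values given above fell in EBs over the same days, and their part in the difference was not tested.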

How the results depend on the processing

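Of the 120 values of the 10 regulators over 12 tests, 39 were called and 31 of these kept the call under all alternatives run. Of the 81 not called, 10 gained a call somewhere, and 0 of the 120 reversed. A reversal was counted only where the sign changed and the value was called in the main fit or the alternative. Small values without a call did change sign, such as Barhl1 for RA at day 12 (-0.44 to 0.01). With the replicate block, genes called went from 1094 to 2436 for RA at day 8, from 205 to 722 for RA at day 12, from 1785 to 3139 for Dox over time, from 972 to 2010 for Dox+RA over time and from 831 to 1255 for EBs over time. For the change over time against EBs it gave 1430 with Dox, with 2 regulators called (Srrm4 was added, 0.83, adjusted p = 0.042), and 1150 with Dox+RA, and 15 in the test of the RA effect between days. The block gave 3 regulators for RA at day 8 and 3 for Dox over time. It also brought Ikzf2 with Dox at day 8 past the threshold (-0.75, limma adjusted p = 0.014). The block took in the EB arrays by their numbers too, so the block values that involve EBs rest on that pairing.

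With array weights, genes called were 2277 for RA at day 8, 635 for RA at day 12 (1 regulator, Ikzf2), 3023 and 2299 for Dox and Dox+RA over time, 1021 and 942 for these against EBs, and 24 for the RA effect between days, where trend and robust moderation and the row of highest variance each gave 1. With only the groups compared in the fit, they were 29 for RA at day 12, 420 for Dox over time (1 regulator), 553 for EBs over time (0 regulators), 415 for Dox over time against EBs (0 regulators) and 1 for the RA effect between days. Median centring and the fit of every row each left 1 regulator for Dox over time and 1 gene for the RA effect between days. The cause of these shifts was not tested.

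Leaving out 1 replicate at a time gave 5614 to 7219 genes for Dox against EBs at day 8 (7 to 8 regulators), 7210 to 8858 at day 12 (7 regulators), 7135 to 8631 for Dox+RA at day 8 (7 to 9) and 7761 to 9282 at day 12 (7 to 8). For RA it gave 333 to 1559 at day 8 (1 to 3), 55 to 393 at day 12 (0 to 1) and 1 to 15 for the difference between days (0). Over time it gave 644 to 2598 with Dox (1 to 3), 297 to 998 with Dox+RA (1 to 2) and 317 to 951 in EBs (0 to 1), and against EBs 266 to 1068 with Dox (0 to 2) and 268 to 686 with Dox+RA (0 to 1). With 2 EB arrays a day, calls against EBs rest on a spread shared over all groups.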
